A study of Mus musculus with 97 samples.

Results

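The effect of losing Cdk5r1 throughout the embryo was examined at embryonic day 16 (E16) in cortical cells that carry a green label. The comparison took every library whose deposited labels place it at E16 in either of a pair of genotypes, which gave 23 of the 97 libraries of the series. Of these, 12 were control-MADM, with the GT and TG cassettes of chromosome 11 and wild-type Cdk5r1, and 11 were KO-Cdk5r1-MADM, with the mutant Cdk5r1 allele on both the GT and the TG chromosome, all with Emx1-Cre and on a CD1 background. Each library held polyadenylated RNA from 2000 GFP+ cells sorted out of 1 cerebral cortex, so that a library stands for 1 embryo.

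MADM marks single cells by recombination between a pair of chromosome 11 copies, which carry the GT and the TG cassette. Emx1-Cre triggers that recombination in the progenitors of the dorsal telencephalon, and both genotypes carry it. In KO-Cdk5r1-MADM both copies of chromosome 11 bear the mutant allele, so the cells around the green ones are mutant as well, and so is the rest of the embryo. The driver marks the Emx1 lineage, that is, radial glia, intermediate progenitors, projection neurons and later cortical glia. Blood cells, microglia, vascular cells and the interneurons that enter the cortex from the ventral telencephalon come from other lineages. Another 7 libraries of E16, of Cdk5r1-MADM, which has the mutant allele on the TG chromosome alone and in which the green cells are mutant within a heterozygous cortex, entered the same fit and are given where noted.

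Cdk5r1 encodes p35, the protein that binds and activates the kinase CDK5. CDK5 differs from the cyclin-dependent kinases of the cell cycle in that it is active in postmitotic neurons, where it phosphorylates proteins of microtubules, actin, adhesion and endocytosis. Mice without p35 are known for cortical layers in which late-born neurons come to lie beneath early-born ones, and p39, encoded by Cdk5r2, is the other neuronal activator.

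The counts on genes per control-MADM library were 867748 at the lowest, 4753564 at the median and 6946345 at the highest. In KO-Cdk5r1-MADM they were 1094174, 4573355 and 6743597, so the depth of both groups overlapped over nearly its whole range. Judged by Xist and Y-linked genes, 6 control-MADM libraries were male and 6 female, against 7 and 4 in KO-Cdk5r1-MADM. No pair of libraries within a genotype was alike enough to be a copy. Levels are given in CPM, the counts per 1000000 counts on tested genes after TMM scaling, and for groups as lowest, median and highest library.

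Several libraries stood apart before any gene was tested. On the first principal component of all tested genes, which held 26.59% of the variance, KO-Cdk5r1-MADM replicates 8, 9, 10 and 11 lay at 46.6, 111, 75.5 and 87.8 and control-MADM replicate 12 at 44.8. The other 25 libraries of E16 lay between -32.7 and 19.9. The same 5 libraries had the highest share of aligned reads that fell on more than 1 gene, 9.45% to 13.4% against 4.68% to 9.14% in the other 25, and the lowest share of uniquely aligned reads, 63.5% to 67.2% against 67.7% to 75.9%. Their depth, between 4091292 and 4849900 counts, was unexceptional. The number of genes detected was 16663 at the lowest, 17720 at the median and 19622 at the highest, against 16172, 19836 and 21699 in the other 25. The share of mitochondrial counts was 2.85%, 3.56% and 4.25% against 1.6%, 2.31% and 4.03%. Control-MADM replicate 2 stood apart on the second component, at 102. The counts and the main gene and list results below are therefore given with all libraries and without these 5, where the genes could still be tested.

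The genotypes also differed in a feature of the mitochondrial genome. Reads of a stretch of mitochondrial sequence fell on the gene mt-Nd3 in 6 control-MADM libraries and on the pseudogene Gm28438 in the other 6, whereas all 11 KO-Cdk5r1-MADM libraries belonged to the Gm28438 class, as did all 5 libraries that stood apart. All 7 Cdk5r1-MADM libraries belonged to the mt-Nd3 class. The level of mt-Nd3, a subunit gene of respiratory complex I, was 0, 2.48 and 13.6 CPM in control-MADM and 0, 0 and 0.893 CPM in KO-Cdk5r1-MADM, and since near-identical copies share these reads, its call is uncertain. Between the class with mt-Nd3 reads and the knockout, class and genotype cannot be told apart.

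Cdk5r1 itself (ENSMUSG00000048895.13, on chromosome 11 of mm10 from 80477023 to 80481184) gave the clearest difference of all. Its level was 107, 204 and 241 CPM in control-MADM and 44.4, 52.7 and 65 CPM in KO-Cdk5r1-MADM. No KO-Cdk5r1-MADM library reached the lowest control-MADM library, which fits the labels of all 23 libraries. The log2 fold change was -1.86 ± 0.10 (SE; edgeR, adjusted p = 5.53e-15), and it was -1.78 without the 5 libraries (edgeR, adjusted p = 4.6e-11). Whole genes were counted, so reads from any part of the gene that the mutant allele keeps stay in these values, and where the remaining reads lie was not examined. Across 12801 tested genes, Cdk5r1 was the 1 gene (0.00781%) whose ranges in both genotypes did not overlap.

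The partners of p35 did not pass the test. Cdk5, the kinase, was at 116, 159 and 185 CPM in control-MADM and at 120, 162 and 245 CPM in KO-Cdk5r1-MADM, with a log2 fold change of 0.08 ± 0.09 (SE; edgeR, adjusted p = 0.592), or 0.05 without the 5 libraries. Cdk5r2, the other activator, was at 0.786, 14.9 and 20.5 CPM and at 12.5, 18.6 and 43.7 CPM, respectively. Its log2 fold change was 0.80 ± 0.28 (SE; edgeR, adjusted p = 0.0764), or 0.41 without the 5 libraries.

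**Figure D1:**
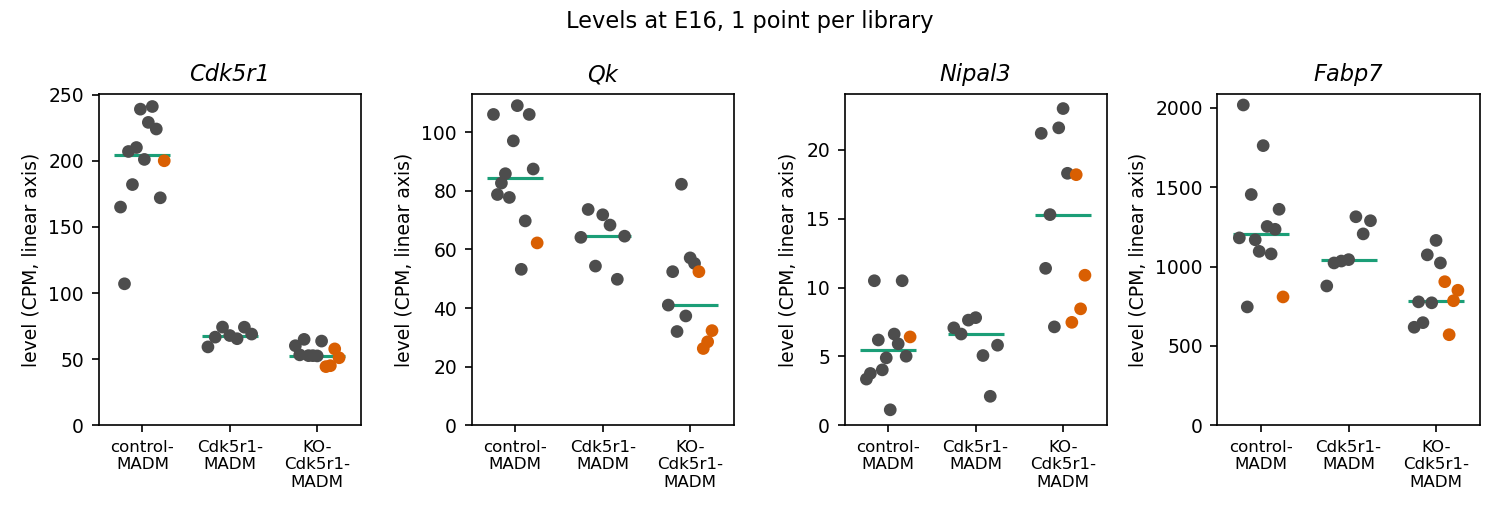
Level (CPM, linear axis) of Cdk5r1, Qk, Nipal3 and Fabp7 at E16, with 1 point per library, a green line at the median of each genotype and the 5 libraries that stood apart in orange. For Cdk5r1 the KO-Cdk5r1-MADM libraries sit between 44.4 and 65, all below the control-MADM libraries, whereas the groups overlap for the other genes.

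Of the 12801 genes, 480 were called at an adjusted p under 0.05 (3.75%). In KO-Cdk5r1-MADM 218 of them were higher (1.7%) and 262 lower (2.05%), and 464 were protein coding. The changes were mostly modest: 61 genes rose by more than 1 on the log2 scale and 21 fell by more than that, while the median over all tested genes was -0.01. Without the 5 libraries the same test called 5 of 12591 genes (0.0397%), with 1962 at an unadjusted p under 0.05. Over the 460 called genes still tested, the median ratio of the log2 fold change without the 5 libraries to that with all was 0.766.

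The count moved with the fit. With only control-MADM and KO-Cdk5r1-MADM in the fit 4 genes were called, with the Cdk5r1-MADM library under the alignment minimum kept 6, and with DESeq2 in place of edgeR 1236. Leaving out 1 library gave between 29 (KO-Cdk5r1-MADM replicate 11) and 1594 (KO-Cdk5r1-MADM replicate 4) called genes. Calls of single genes were therefore counted across 23 fits, each without another library, and 25 genes, 15 higher and 10 lower, were called in all of them.

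Base composition moved with the result across the whole genome. The median GC content of the longest transcript was 57.3% in the genes that rose (quartiles 54.4% and 59.2%), 42.4% in those that fell (40% and 44.7%) and 49.8% in the genes not called. When the tested genes were ordered by GC content and split into 10 equal parts, the part poorest in GC held 1279 genes, of which 103 fell (8.05%) and 0 rose by edgeR, with a median log2 fold change of -0.37. In the part richest in GC 91 rose (7.11%) and 0 fell, with a median of 0.27. Across 12790 genes, which are not independent, the Spearman correlation of GC content with the log2 fold change was 0.60, and it was 0.56 without the 5 libraries. The GC content weighted by counts was 50.2%, 50.9% and 51% in control-MADM and 50.2%, 51.3% and 52.1% in KO-Cdk5r1-MADM, so the ranges overlapped. When each library was corrected for GC content, a step chosen after seeing the data, 38 genes were called (0.297%), 22 higher and 16 lower. Of the 480 genes 28 were still called under it, and the median ratio of the log2 fold changes was 0.631. The part of base composition in the calls was not tested beyond this.

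**Figure D2:**
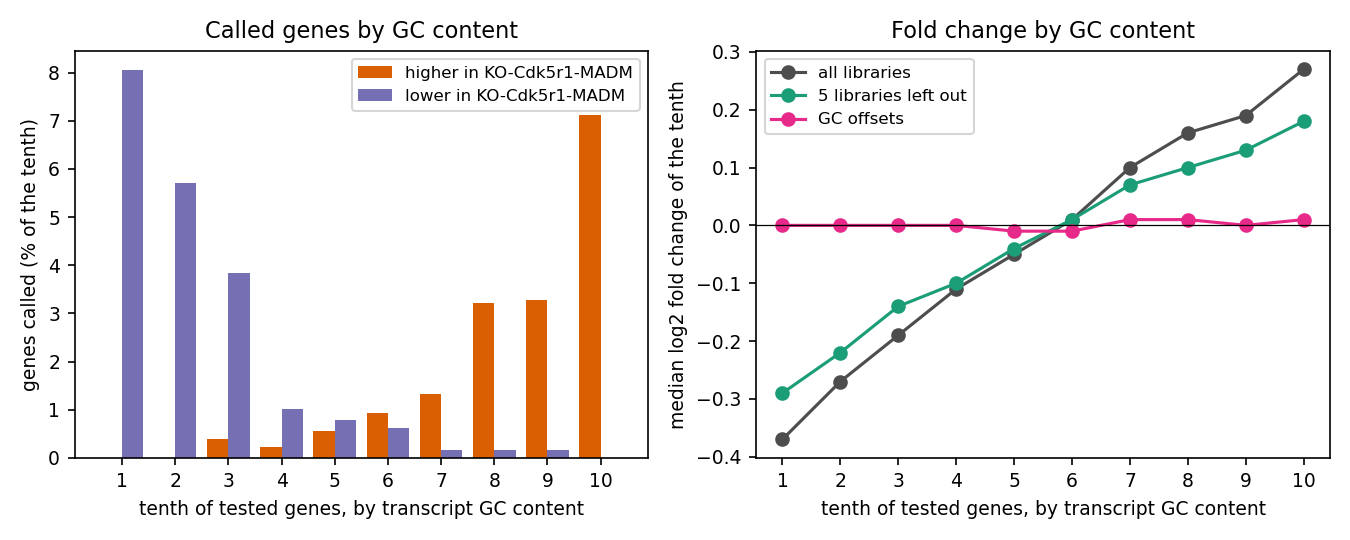
Left, share of genes called higher or lower in KO-Cdk5r1-MADM (% of each of 10 equal parts of the tested genes, ordered by transcript GC content). Right, median log2 fold change of each part with all libraries, from -0.37 to 0.27, without the 5 libraries that stood apart, from -0.29 to 0.18, and with GC offsets, where it stays near 0.

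Called genes lay on every autosome and on the X chromosome. Chromosome 11, which carries Cdk5r1 and the MADM cassettes, had 46 called genes of 1002 tested (4.59%), against 5.02% on chromosome 15 and 2.11% on chromosome 7, the autosomes with the highest and the lowest share. Within 10 Mb of Cdk5r1, 11 of 211 tested genes were called (5.21%), 3 higher (1.42%) and 8 lower (3.79%), beside 1.7% and 2.05% of all tested genes, and the difference was not tested. Of 981 genes on chromosome 11, 2 were called without the 5 libraries, and 1 of 203 within 10 Mb. Besides Cdk5r1, those that fell included Tubd1, which encodes delta-tubulin (log2 fold change -1.22), the S6 kinase gene Rps6kb1 (-0.73), the clathrin heavy chain gene Cltc (-0.60), Ywhae, a 14-3-3 protein gene (-0.47), and Pafah1b1 (-0.38), the lissencephaly gene LIS1, whose product regulates dynein. Without the 5 libraries these values were -1.07, -0.57, -0.52, -0.33 and -0.36, and their adjusted p from edgeR was between 0.0989 and 0.241. A separate case was Gm10039, a processed pseudogene on chromosome 11 from 100361716 to 100362126, named after its values were seen. It was at 3.19 to 5.36 CPM in all KO-Cdk5r1-MADM libraries, at 37.3 to 72.8 CPM in control-MADM replicates 1 to 9 and at 1.7 to 5.19 CPM in control-MADM replicates 10 to 12, and its reads may belong to a near-identical gene.

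Apart from Cdk5r1 and Gm10039, 3 genes were called with all libraries and without the 5. Qk (ENSMUSG00000062078.14) encodes quaking, an RNA-binding protein of glial progenitors that acts on splicing and mRNA stability. It was at 53.2, 84.2 and 109 CPM in control-MADM and at 26.2, 41 and 82.2 CPM in KO-Cdk5r1-MADM. The groups overlapped, but all 11 knockout libraries lay below the control median, and the log2 fold change was -0.92 ± 0.15 (SE; edgeR, adjusted p = 0.00334), -0.78 without the 5 libraries (edgeR, adjusted p = 0.0412) and -0.63 with the GC correction (edgeR, adjusted p = 0.00244). Nipal3, a member of the NIPA family of magnesium transporters, went the other way, from 1.13, 5.47 and 10.5 CPM to 7.15, 15.3 and 23 CPM. Its log2 fold change was 1.34 ± 0.26 (SE; edgeR, adjusted p = 0.0164), and 1.55 without the 5 libraries (edgeR, adjusted p = 0.00841). Tmem121b, which encodes a transmembrane protein and was named after its values were seen, was at 12.5, 24.9 and 43.5 CPM in control-MADM and at 26.3, 40.6 and 58 CPM in KO-Cdk5r1-MADM. All 11 knockout libraries lay above the control median, with a log2 fold change of 0.72 ± 0.18 (SE; edgeR, adjusted p = 0.03) and 0.95 without the 5 libraries (edgeR, adjusted p = 0.0374). The calls of Nipal3 and Tmem121b depended on the fit. With only controls of the same mitochondrial class edgeR called 0 genes higher, so neither passed there. With the GC correction and without the 5 libraries 1 gene was called higher, so at most 1 of them passed.

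Of the genes that rose in each of the 23 fits, Mapre3 encodes the plus-end binding protein EB3, and its level was 89.6, 130 and 148 CPM in control-MADM and 123, 168 and 236 CPM in KO-Cdk5r1-MADM (log2 fold change 0.48; edgeR, adjusted p = 0.0201). Cep170b, a centrosomal protein gene, rose by 0.67 and Nckap5l, whose product binds microtubules, by 0.58 on the log2 scale. Isyna1, the enzyme that begins inositol synthesis, rose by 0.71, Faah, which degrades endocannabinoids, by 0.67, Slc7a4, a relative of cationic amino acid transporters, by 0.81 and Slc6a9, the glycine transporter GlyT1, by 1.47. Faap100, of the Fanconi anaemia complex, rose by 0.61, Cuedc1 by 0.52 and the transcription factor gene Sox13 by 1.54. Without the 5 libraries all of these stayed positive, between 0.35 (Mapre3) and 0.90 (Sox13), with an adjusted p from edgeR between 0.0914 and 0.223.

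Of the genes that fell in each of the 23 fits, Mef2c, a transcription factor gene of maturing projection neurons, was at 117, 209 and 298 CPM in control-MADM and at 75.1, 116 and 230 CPM in KO-Cdk5r1-MADM. The ranges overlapped, and the log2 fold change was -0.81 ± 0.17 (SE; edgeR, adjusted p = 0.0223). Atad2, a chromatin ATPase gene of dividing cells, fell by 1.01 and Rbm39, a splicing factor gene, by 0.52 on the log2 scale. Without the 5 libraries the values were -0.75 for Mef2c, -0.77 for Atad2 and -0.51 for Rbm39, with an adjusted p from edgeR between 0.135 and 0.17.

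Some large fold changes came from few libraries. Of the called protein-coding genes with the largest rise, Krt18, a keratin gene of simple epithelia, was at 0, 0 and 1.92 CPM in control-MADM and at 21, 80.3, 37 and 17.5 CPM in KO-Cdk5r1-MADM replicates 8, 9, 10 and 11, with at most 1.97 CPM in the other knockout libraries. Wfikkn2, which encodes a secreted protein with protease inhibitor domains, reached 15, 29.5 and 24 CPM in replicates 8, 9 and 11 and at most 1.89 CPM in control-MADM. Uncx, a homeobox gene, was highest in replicate 10, at 52.7 CPM. On the other side, the thrombomodulin gene Thbd was at 82 CPM in control-MADM replicate 12 and at most 1.31 CPM in all other libraries of both genotypes, so its call as lower rests on that library. Atp7a, the copper transporter gene, fell in a broader way, from 16.4, 34.9 and 108 CPM to 3.91, 15.9 and 24.1 CPM (log2 fold change -1.48; edgeR, adjusted p = 0.0244), and was at -1.42 without the 5 libraries. Cip2a, an inhibitor of the phosphatase PP2A that is active in dividing cells, was at 4.54, 6.58 and 12.9 CPM and at 0, 3.06 and 7 CPM, a log2 fold change of -1.57 (edgeR, adjusted p = 0.0422), and was at -1.36 without the 5 libraries. Krt18, Wfikkn2, Uncx and Thbd had too few counts to be tested without them.

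Functions were read from 22 lists of gene families, which hold 1637 tested genes together with 17 lists of cell type markers. The counts of called members are to be read beside the 1.7% of all tested genes that rose and the 2.05% that fell, and no list was tested as a group. A median without the 5 libraries covers the genes still tested, which were fewer in several lists. There were 14 against 25 for microglia and macrophages, 14 against 18 for endothelial cells and 11 against 18 for meninges and fibroblasts. For pericytes and smooth muscle there were 7 against 12, and 7 against 10 for the oligodendrocyte lineage and for Cajal-Retzius cells. Genes that could be tested only with the 5 libraries passed the count minimum through libraries in which they were high. Counts and medians with all libraries are therefore no test of these lists or of others that lost genes. Summed levels cover all genes of a list, tested or not. Of the 43 tested genes of CDK5 and its known substrates, 2 rose and 3 fell, and the median log2 fold change was -0.01, the same as over all genes, or -0.02 without the 5 libraries. Those that fell were Cdk5r1, Cdkn1b (p27, log2 fold change -0.57; -0.37 without the 5 libraries) and Gsk3b, a kinase of tau and beta-catenin (-0.67; -0.59), and those that rose were Dnm1 (dynamin, 0.50; 0.21) and Ngef (ephexin, 1.87). Ngef was at 16.2 to 104 CPM in KO-Cdk5r1-MADM replicates 8 to 11 and at most 15.1 CPM in the other libraries of both genotypes, and without the 5 libraries its log2 fold change was 0.05. Of 36 genes of the reelin pathway, which guides neurons to their layer, 2 rose, the kinase gene Src (0.54; 0.23 without the 5 libraries) and the ephrin gene Efnb3 (0.57; 0.46), and 3 fell, among them Gsk3b and Pafah1b1, with a median of -0.09 and -0.03 without the 5 libraries. Of 73 genes of motors and binders of microtubules and actin, 1 rose and 2 fell, with a median of -0.02 and of -0.06 without the 5 libraries.

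Of 123 tested genes of splicing and RNA binding, 0 rose and 10 fell by edgeR, beside 2.05% of all tested genes, and the median log2 fold change was -0.17, or -0.13 without the 5 libraries. Besides Qk and Rbm39, these were among others Prpf39 (-0.96; -0.97 without the 5 libraries), Srsf11 (-0.44; -0.33) and Hnrnpk (-0.41; -0.33), which code for splicing factors and a nuclear RNA-binding protein. The list was poor in GC, with a median of 45%, and its median log2 fold change was 0.00 with the GC correction. Of 70 genes of heat shock and chaperones, 0 rose and 7 fell, beside 2.05% of all tested genes, among them Hspa5, the chaperone of the endoplasmic reticulum (-0.43; -0.40 without the 5 libraries), the mitochondrial chaperonin gene Hspd1 (-0.47; -0.31) and the heat shock factor gene Hsf2 (-0.80; -0.67), and the median was -0.12 (-0.09 without them). Of 45 proteasome genes, 3 fell, among them the ATPase subunit gene Psmc6 (-0.49; -0.40 without the 5 libraries), with a median of -0.10 (-0.06). The median GC content of these lists was 46.9% and 49.7%, and their median log2 fold changes with the GC correction were -0.03 and -0.08.

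Of 25 tested genes of cholesterol synthesis, 0 rose and 5 fell by edgeR, beside 1.7% and 2.05% of all tested genes, and 11 had a positive value, with a median log2 fold change of -0.13 both with and without the 5 libraries. Hmgcs1, which makes the precursor of mevalonate, was at 248, 296 and 384 CPM in control-MADM and at 152, 214 and 312 CPM in KO-Cdk5r1-MADM. Its log2 fold change was -0.46 ± 0.10 (SE; edgeR, adjusted p = 0.0239), and -0.52 without the 5 libraries (edgeR, adjusted p = 0.0657). Sqle, which forms squalene epoxide, fell by 0.43 (by 0.46 without them), Sc5d, a late desaturase of the pathway, by 0.57 (by 0.42) and Insig1, which holds back the sterol sensor, by 0.37 (by 0.37). With the GC correction the median of the list was -0.06.

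Of 102 tested genes of the extracellular matrix, 6 rose and 0 fell by edgeR, beside 1.7% and 2.05% of all tested genes, with a median log2 fold change of 0.31 and of 0.01 without the 5 libraries. Col4a2, a collagen of basement membranes, was at 8.48, 11.7 and 92.4 CPM in control-MADM, with the highest value in replicate 12, and at 118 to 252 CPM in KO-Cdk5r1-MADM replicates 8 to 11, against at most 29.6 CPM in the other knockout libraries. The proteoglycan gene Gpc1, by contrast, was at 71.7, 126 and 197 CPM and at 121, 181 and 304 CPM (log2 fold change 0.60; edgeR, adjusted p = 0.0334; 0.48 without the 5 libraries), and Cspg5, a neuronal proteoglycan gene, rose by 0.75 (0.46 without them). Of 92 adhesion genes, 2 rose and 6 fell, and 37 had a positive value, with a median of -0.12 and -0.14 without the 5 libraries. The cadherin gene Cdh6 fell by 0.88, and Ntm and Opcml, which encode neural adhesion molecules of the IgLON family, by 0.71 and 0.72, and without the 5 libraries these were at -0.62, -0.66 and -0.57.

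Of 68 genes of synaptic vesicles and release, 4 rose and 2 fell, among them the synapsin gene Syn2 (log2 fold change 0.52; 0.35 without the 5 libraries) and the vesicle protein gene Sv2a (0.44; 0.33), both higher, with a median of 0.09 and of 0.02 without the 5 libraries. Of 67 channel genes, 5 rose and 0 fell by edgeR, beside 1.7% and 2.05% of all tested genes, with a median of 0.17 (0.10 without the 5 libraries). Cacna1g, a T-type calcium channel gene, rose from 3.4, 6.38 and 13.8 CPM to 6.74, 13.7 and 32.8 CPM, Kcnk3, of the leak potassium channels, by 0.96 and Kcng1, a modifier subunit, by 0.73 on the log2 scale, and without the 5 libraries these were at 0.58, 0.92 and 0.67. Another of the 5, Kcne2, is a potassium channel subunit gene of the choroid plexus and could not be tested without them. Of 46 transmitter receptor genes 1 rose and 1 fell, the latter the AMPA receptor gene Gria2 (-0.56; -0.50 without the 5 libraries), with a median of 0.08 (-0.20). Of 62 genes of axon guidance 2 rose and 3 fell, with a median of 0.10 (0.02).

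Lists of energy metabolism, translation and other functions are given next, beside the 1.7% of all tested genes that rose and the 2.05% that fell. Of 31 genes of hypoxia and glycolysis 2 rose, the enolase gene Eno2 (log2 fold change 0.61; 0.36 without the 5 libraries) and the isomerase gene Gpi1 (0.33; 0.32), with a median of 0.11 (0.09). Of 99 nuclear genes of mitochondrial respiration, a list without mt-Nd3, none passed the test with edgeR, and 1 of 82 cytosolic and 1 of 74 mitochondrial ribosome genes fell, with medians of -0.05, 0.02 and -0.08 (-0.09, -0.04 and -0.10 without the 5 libraries). Of 110 chromatin regulators 2 rose and 5 fell (median -0.10, and -0.06 without them), and 1 of 63 genes of DNA repair and 1 of 60 genes of Wnt, Notch and BMP signalling rose (medians -0.14 and 0.11, and -0.08 and 0.00 without them). No gene of the 12 of the interferon response or of the 27 immediate early genes was called. Their medians were 0.05 and 0.37, and -0.12 and -0.24 without the 5 libraries.

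Markers of the sorted lineage were lower in part. Of 23 tested radial glia genes 3 fell and 0 rose by edgeR, beside 2.05% and 1.7% of all tested genes, with a median log2 fold change of -0.25, or -0.14 without the 5 libraries. Fabp7, the fatty acid binding protein of radial glia and the gene with most counts of this list, was at 746, 1208 and 2018 CPM in control-MADM and at 571, 785 and 1165 CPM in KO-Cdk5r1-MADM. The groups overlapped, with a log2 fold change of -0.60 ± 0.14 (SE; edgeR, adjusted p = 0.025) and of -0.58 without the 5 libraries (edgeR, adjusted p = 0.149). The glutamate transporter gene Slc1a3 fell by 0.59 (by 0.43 without them) and the receptor phosphatase gene Ptprz1 by 0.71 (by 0.58). Of the 23 genes, 5 had a positive value. Sox2, a defining marker, was at 14.6, 72.6 and 108 CPM in control-MADM and at 42.1, 85.5 and 116 CPM in KO-Cdk5r1-MADM. Without the 5 libraries the medians of Hes5 were 411 and 497 CPM. The summed level of the list was 4295, 5582 and 6510 CPM in control-MADM and 3868, 4650 and 5651 CPM in KO-Cdk5r1-MADM, and in control-MADM without replicate 12 and KO-Cdk5r1-MADM replicates 1 to 7 it was 4908, 5628 and 6510 CPM and 4288, 4743 and 5651 CPM. Fewer cells of a type and less RNA per cell cannot be told apart in such libraries. Of 40 genes of cell division 2 fell, the mitotic kinesin gene Kif11 (-0.92; -0.80 without the 5 libraries) and the chromatin remodeller gene Hells (-0.99; -0.84), with a median of -0.26 and -0.23 without the 5 libraries. None of 17 intermediate progenitor genes was called (median 0.11, and 0.09 without them). With the GC correction the medians of these lists were -0.26 and -0.05, respectively, so the second turned its sign.

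Of 17 upper layer genes 2 fell, Cux1, a transcription factor gene of late-born neurons (272, 293 and 323 CPM against 149, 238 and 301 CPM, log2 fold change -0.30; -0.20 without the 5 libraries), and the ephrin receptor gene Epha3 (-0.62; -0.34), and the median was -0.33, or -0.19 without the 5 libraries. Summed over the list, the level was 2747, 3888 and 4273 CPM in control-MADM and 1627, 2890 and 4063 CPM in KO-Cdk5r1-MADM. Its lowest values, 1627 to 2060 CPM, were those of KO-Cdk5r1-MADM replicates 8 to 11, and control-MADM replicate 12 was the lowest of its group. Of 23 deep layer genes none was called, with a median of 0.12 and of -0.16 without the 5 libraries, and Tbr1, a transcription factor gene of early-born corticothalamic neurons, was at 71.8, 151 and 197 CPM and at 112, 169 and 223 CPM. Nfib, a nuclear factor gene and the one with most counts of the list, was lower at the median, at 305, 553 and 825 CPM against 70.9, 219 and 766 CPM, but did not pass the test (edgeR, adjusted p = 0.0723). The list summed to 1940, 2109 and 3051 CPM and to 1607, 2019 and 2573 CPM. No difference between the layers was tested. Of 22 genes of migrating neurons 2 fell, the guidance gene Sema3c (-0.95; -0.67 without the 5 libraries) and the neuronal transcription factor gene Sox11 (-1.15; -0.82), with a median of -0.21 and -0.07 without the 5 libraries. Neurod6, which marks projection neurons, was at 579, 975 and 1726 CPM in control-MADM and at 413, 740 and 1155 CPM in KO-Cdk5r1-MADM, with 413 to 488 CPM in replicates 8 to 11. Tubb3, the gene with most counts of the list, was at 2889, 4053 and 4603 CPM and at 3501, 4235 and 6126 CPM. Without the 5 libraries the medians of Tubb3 were 4038 and 3709 CPM, and those of Neurod2 597 and 639 CPM. Of the 22 genes, 4 had a positive value. Of 10 subplate genes 1 rose, Nxph4, a neurexin ligand gene (0.64; 0.67 without the 5 libraries), with a median of 0.03 (0.00).

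With all libraries, choroid plexus and ependyma had the largest median of the lists. That rank rests partly on genes tested only through libraries that stood apart, where most high values of the list lay. Of the 15 genes of the list, 9 could be tested with all libraries but 4 without the 5. The others of the 9 passed the count minimum only through libraries in which they were high. Of the 9, 6 rose and 0 fell by edgeR, beside 1.7% of all tested genes, with a median log2 fold change of 3.26. This count and this median are therefore no test of the list. Folr1, the folate receptor gene of the choroid epithelium, was at 0, 0.378 and 7.77 CPM in control-MADM, and at 66.4, 138, 14.3 and 72.2 CPM in KO-Cdk5r1-MADM replicates 8, 9, 10 and 11, with at most 0.785 CPM in the other 7 knockout libraries. The water channel gene Aqp1 (26.8, 90.7, 2.9 and 28.4 CPM) and the chloride channel gene Clic6 (21.5, 20.9, 6.05 and 16.4 CPM) were highest in the same genotype, and Aqp1 was low in replicate 10, with at most 3.45 and 1.28 CPM in control-MADM. Foxj1, a factor of motile cilia, was at 23.4, 65.1, 5.08 and 30.5 CPM there and at most 11.8 CPM in the other libraries of both genotypes. The summed level was 10.6, 34.8 and 568 CPM in control-MADM and 20.5, 78.9 and 8443 CPM in KO-Cdk5r1-MADM, and it came to 7176, 8443, 108 and 6590 CPM in replicates 8, 9, 10 and 11 and to 106 CPM in control-MADM replicate 12. The highest control-MADM value, 568 CPM, was in replicate 1, and most counts of this list lay on 1 gene that is not described here. Folr1 was at 0 in 5 control-MADM and 3 KO-Cdk5r1-MADM libraries. Without the 5 libraries 4 genes of the list could be tested, and their median was -0.44.

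Glial and vascular markers that rose did so largely in the same libraries. Of 10 tested genes of the oligodendrocyte lineage 2 rose and 0 fell by edgeR, with a median log2 fold change of 1.13 and of -0.03 without the 5 libraries. Some of the 10 were tested only through libraries in which they were high, so this count and the median of 1.13 are no test of the list. Sox10, the factor that specifies oligodendrocytes, was at 0, 0.531 and 4.69 CPM in control-MADM and at 6.03, 47.9, 18.9 and 68.8 CPM in KO-Cdk5r1-MADM replicates 8, 9, 10 and 11, against at most 7.4 CPM in the other knockout libraries. Cspg4, the NG2 proteoglycan gene of oligodendrocyte precursors and pericytes, was at 12.1, 37.5, 40.6 and 76.9 CPM in these replicates, at 16.5 CPM in control-MADM replicate 12 and at most 4.44 CPM in the other libraries of both genotypes. The list summed to 96.6, 158 and 320 CPM in control-MADM and 104, 184 and 798 CPM in KO-Cdk5r1-MADM, with Olig1 as the gene with most counts. Of 12 genes of pericytes and smooth muscle 1 rose, the actin gene Acta2, which was at 115, 4.37, 39.7 and 0.261 CPM in replicates 8, 9, 10 and 11 and also at 39.3 CPM in replicate 4, with at most 5.26 CPM in control-MADM. That list, with Vtn as the gene with most counts, summed to 49.4, 83.2 and 271 CPM and to 50, 95.6 and 657 CPM, and its median was 0.96, or -0.11 without the 5 libraries. The same limit holds for its count and its median with all libraries.

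**Figure D3:**
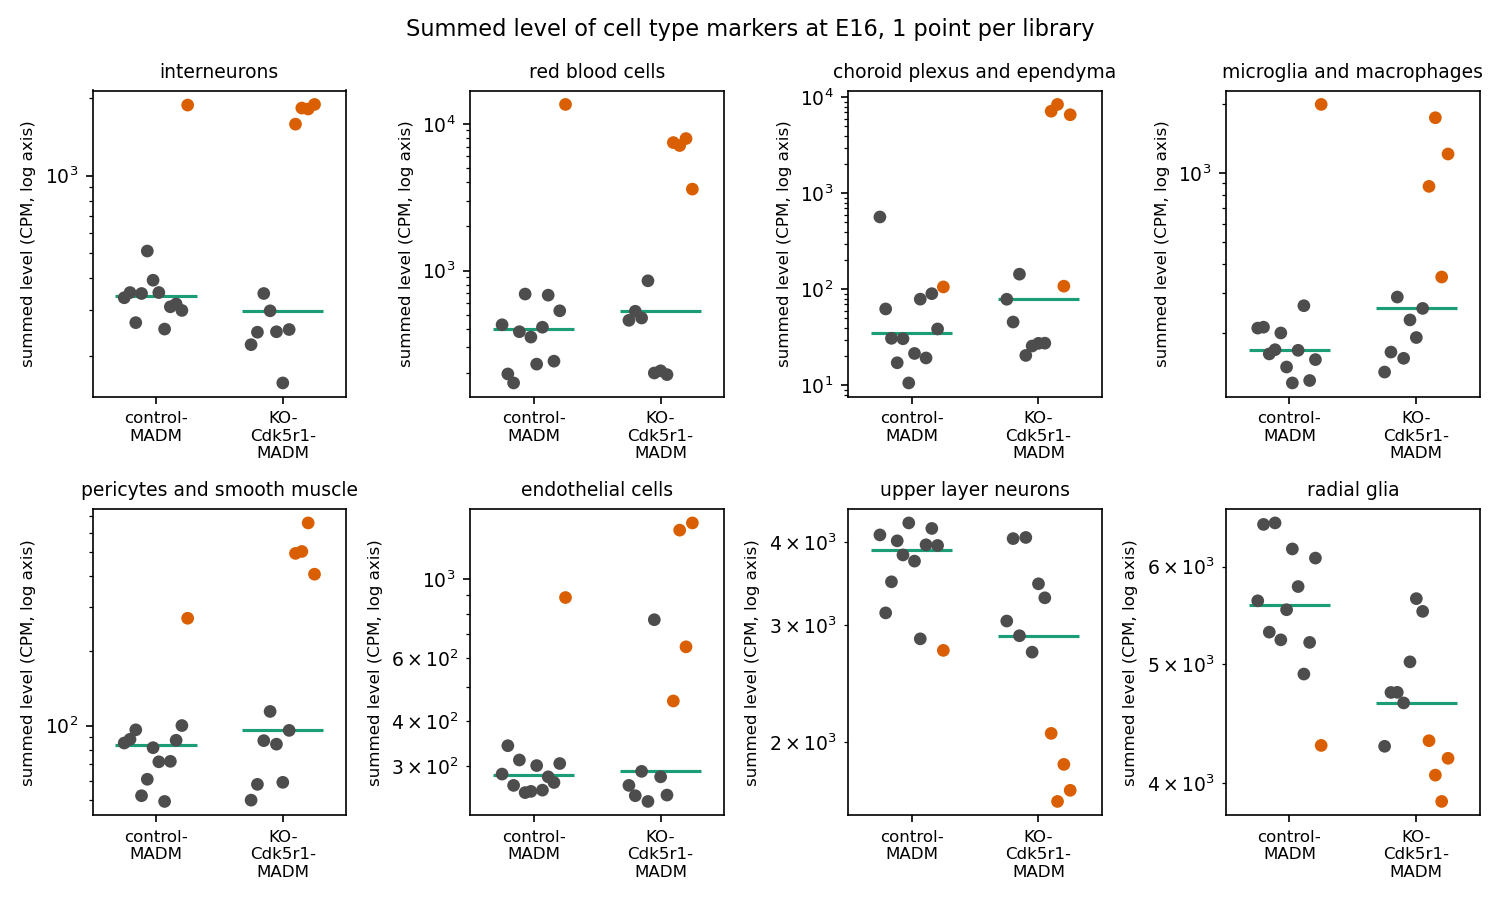
Summed level (CPM, log axis) of the markers of 8 cell types at E16, with 1 point per library, a green line at the median of each genotype and the 5 libraries that stood apart in orange. Interneuron markers sit between 1584 and 1889 in these 5 and between 157 and 510 in the other control-MADM and KO-Cdk5r1-MADM libraries.

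Interneuron, red blood cell and microglia lists were as high in control-MADM replicate 12 as in KO-Cdk5r1-MADM replicates 8 to 11, and 1 of their genes was called. Interneuron markers summed to 254, 342 and 1878 CPM in control-MADM and to 157, 299 and 1889 CPM in KO-Cdk5r1-MADM. Of 23 tested genes 0 rose and 1 fell by edgeR, with a median log2 fold change of 1.22 and of -0.29 without the 5 libraries. Dlx2, a factor of ventral progenitors and interneurons, was at 193, 299, 285 and 283 CPM in KO-Cdk5r1-MADM replicates 8, 9, 10 and 11, at 289 CPM in control-MADM replicate 12 and at most 30.5 CPM in all other libraries of both genotypes. Gad1, which makes GABA, reached 84.6 CPM in KO-Cdk5r1-MADM and 68.9 CPM in control-MADM replicate 12. The gene that fell was Npy, a neuropeptide gene and the one with most counts of the list over all libraries. In the 5 libraries Dlx2 exceeded it, with medians of 285 and 90.9 CPM. Npy was at 57.3, 127 and 173 CPM in control-MADM and at 28.1, 58.8 and 118 CPM in KO-Cdk5r1-MADM. Its log2 fold change was -0.95 ± 0.24 (SE; edgeR, adjusted p = 0.0334), and -1.26 without the 5 libraries (edgeR, adjusted p = 0.0745).

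Blood and immune cells followed the same libraries. Red blood cell genes summed to 172, 398 and 13542 CPM in control-MADM, the last in replicate 12, and to 196, 529 and 7930 CPM in KO-Cdk5r1-MADM, where replicates 8, 9, 10 and 11 were at 7445, 7110, 7930 and 3591 CPM. None of the 11 tested genes was called by edgeR (median 0.78, and 0.11 without the 5 libraries). The haemoglobin gene Hbb-bs, the gene with most counts of the list, which may share reads with its close copy, was at 1.13, 91.2 and 6866 CPM and at 0.296, 177 and 3621 CPM. Microglia and macrophage genes summed to 121, 169 and 1990 CPM and to 135, 256 and 1741 CPM, with 873, 1741, 351 and 1209 CPM in KO-Cdk5r1-MADM replicates 8, 9, 10 and 11. None of 25 tested genes was called (median 0.78, and 0.24 without the 5 libraries). The complement gene C1qb was at 0, 2.33 and 138 CPM and at 0, 8.97 and 180 CPM, and was at 0 in 1 library of each genotype.

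Endothelial genes summed to 253, 282 and 887 CPM in control-MADM and to 239, 290 and 1433 CPM in KO-Cdk5r1-MADM, with none of 18 tested genes called and a median of 1.14, or 0.36 without the 5 libraries. Cldn5, the claudin of brain endothelium, was at 0, 3.23 and 108 CPM and at 0.574, 9.9 and 327 CPM, and it was also high in KO-Cdk5r1-MADM replicate 5, at 178 CPM. The list of meninges and fibroblasts summed to 1366, 2714 and 7468 CPM and to 2383, 3149 and 9128 CPM, and none of its 18 tested genes was called (median 0.59, and -0.18 without the 5 libraries). Most of these counts were on Nnat, the imprinted gene of neuronatin, which neurons also express, at 1189, 2540 and 5822 CPM and at 2216, 2994 and 8153 CPM. Col1a1, a collagen of fibroblasts, was at 1.49, 4.4 and 224 CPM and at 0, 2.84 and 151 CPM. Of 10 tested genes of Cajal-Retzius cells 1 rose, the noncoding RNA gene Snhg11 (median 0.81, and -0.11 without the 5 libraries). The 14 genes of the list, tested or not, summed to 189, 449 and 669 CPM and to 216, 519 and 1305 CPM. Of 15 astrocyte genes none was called (median 0.20, and -0.05 without the 5 libraries). The 17 genes of that list, tested or not, summed to 482, 650 and 2096 CPM and to 487, 761 and 2041 CPM. Apoe, the gene with most counts of the list, was at 81.8, 154 and 1204 CPM and at 90.2, 213 and 1108 CPM. The part of these other cell types in the 480 called genes was not tested beyond leaving out the 5 libraries.

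The Cdk5r1-MADM libraries of E16 share their controls with the knockout, so their values are set side by side here and not related to each other. All 7 were of the mt-Nd3 class and none stood apart. The knockout values include the libraries that stood apart, and all 11 knockout libraries were of the Gm28438 class. Genotype and mitochondrial class cannot be told apart between them. Cdk5r1 was at 59.3 to 74.3 CPM in the 7 Cdk5r1-MADM libraries, a log2 fold change of -1.54 (edgeR, adjusted p = 1.52e-10). With Cdk5r1-MADM given first and the knockout second, Qk had -0.40 and -0.92, Mef2c 0.02 and -0.81, Nipal3 0.03 and 1.34, and Fabp7 -0.18 and -0.60. Tmem121b had 0.66 and 0.72. In Cdk5r1-MADM the adjusted p of these genes other than Cdk5r1 was 0.894 to 0.994 from edgeR. Their summed levels were 227 to 384 CPM for interneurons, 172 to 653 CPM for red blood cells, 28.1 to 334 CPM for choroid plexus and ependyma and 137 to 331 CPM for the oligodendrocyte lineage.

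The change at E16 was then compared with that at E13 and at P0 (birth) in a joint fit of 12930 genes, with 8 control-MADM and 5 KO-Cdk5r1-MADM libraries at E13 and 12 and 10 at P0. Cdk5r1-MADM libraries were in the fit as well, 8 of E13, 7 of E16 and 6 of P0. Of these, E13 replicates 2 and 5 held only 2243 and 2610 counts but passed the alignment minimum, and leaving out these libraries alone was not tested. This fit estimates 1 spread per gene over all ages, and it called 2373 genes at E16, 1173 higher and 1200 lower, or 50 without the 5 libraries, so its counts do not compare with the 480 of E16 alone. At P0, 413 genes were called (3.19%), 87 higher and 326 lower. That count was 747 when the 5 libraries of E16 left the fit. The count was 157 when a minimum depth replaced the alignment minimum. This left out Cdk5r1-MADM replicates 2 and 5 of E13 and took in the libraries of low alignment, so these changes cannot be told apart. The change differed between E16 and P0 for 973 genes (7.53%) and between E16 and E13 for 29 (0.224%), but for 81 and 1 without the 5 libraries. Of 261 genes that fell at E16 and were in the joint fit, 158 had the same sign at P0 (60.5%, beside 50.1% of all genes in the fit) and 20 were called lower there, 7.66% of these genes, beside 2.52% of all genes, and 6.13% of the 326. They included genes of radial glia and sterol synthesis, and the P0 log2 fold change was -0.99 for Fabp7, -1.09 for Slc1a3, -1.10 for Ptprz1, -0.62 for Hmgcs1 and -0.39 for Sqle. Qk (-0.74), Mef2c (-0.93), Cdh6 (-0.65) and Cdk5r1 (-1.24) were likewise lower at P0, with an adjusted p from edgeR of at most 0.0299 for each gene named.

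Of 210 genes that rose at E16, 123 had a positive value at P0 (58.6%, beside 49.9% of all genes in the fit), 5 were called higher there (2.38% of these genes, beside 0.673% of all genes, and 5.75% of the 87), among them Nxph4, Eno2 and Kcng1, and 3 were called lower. The 3 were Sox10 (P0 log2 fold change -1.81), Cspg4 (-1.55) and Cspg5 (-0.90), and their change at E16 differed from that at P0, without the 5 libraries for Sox10 and Cspg5 alone. The median P0 value was 0.05 over the genes that rose at E16, -0.05 over those that fell and 0.00 over all genes. At E13, 0 genes were higher and 2 lower by edgeR, with 632 at an unadjusted p under 0.05.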

How the data were processed

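Reads had been aligned by STAR to the mm10 genome by the authors, who deposited, for each library, its counts per gene, of which the unstranded column 2 was used, so reads of either strand count. R 3.6.1 and bedtools were also named, and the versions of STAR and bedtools were not stated. Reads on no gene, on more than 1 gene or on several places stayed out of the counts. Of 53379 gene identifiers, 53274 were found in the GENCODE M21 annotation.

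Libraries with at least 50% uniquely aligned reads and genes with a mean count over 10 were kept, which removed Cdk5r1-MADM replicate 5 at E16 and control-MADM replicate 4 at E13. The 3 genotypes of E16 were fitted together with edgeR 4.0.16 (TMM scaling, robust quasi-likelihood test) in R 4.3.3, and genes with a Benjamini-Hochberg adjusted p under 0.05 were called. Differences between ages were tested as an interaction in a joint fit. DESeq2 1.42.0, other filters, covariates and the omission of single libraries served as alternatives. The authors removed samples for a low share of uniquely aligned reads or for their position on a plot of principal components. Only the alignment minimum was applied in the main fit here. Leaving out the 5 libraries that stood apart and the offsets from 50 bins of GC content were chosen after seeing the data. The main E16 fit was tested on simulated counts with known changes, which held no GC trend and no libraries that stood apart. The joint fit over ages and the GC offsets were not tested in this way.

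Members and gene lists were chosen with earlier results of these data known. Named genes are Cdk5r1, Cdk5 and Cdk5r2, the 10 protein-coding genes per direction with the smallest adjusted p, the 5 with the largest change, up to 4 called genes per direction of each list, defining and most abundant markers, up to 10 protein-coding genes per direction called in every fit without 1 library, and called genes within 10 Mb of Cdk5r1. Not every gene of this rule is described. Tmem121b, Gm10039 and Gm28438 were named after their values were seen. No fold change is given where a group had at most 3 counts in every library. Some single-gene results are not reported here.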

Additional observations from a re-analysis of the deposited data

Results flagged for a closer look

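The results below were marked because the change between KO-Cdk5r1-MADM and control-MADM differed between ages in a test of the difference (edgeR, adjusted p under 0.05). Values are the log2 fold change at E16 minus that at the other age. The difference from P0 was called for 973 genes and that from E13 for 29, and for 81 and 1 without the 5 libraries of E16 that stood apart. Of the 43 genes given below for P0, 40 could be tested without these and 7 were called, Sox13 (1.68), Slc6a9 (1.47), Hsf2 (-0.85), Npy (-2.17), Cspg5 (1.36), Sox10 (3.83) and Atp7a (-2.11), and of the 3 given for E13 none was called by edgeR.

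For genes that rose at E16, E16 minus P0 was 0.50 for Faap100, 0.64 for Cuedc1, 2.35 for Sox13, 0.68 for Isyna1, 0.60 for Nckap5l, 0.70 for Faah and 2.23 for Slc6a9. In neuronal and matrix genes it was 2.43 for Ngef, 0.80 for Src, 1.68 for Cspg5, 0.75 for Gpc1, 2.21 for Col4a2, 4.03 for Cspg4, 1.65 for Cacna1g and 0.48 for Gpi1. Markers of epithelia, glia and mural cells had 7.89 (Krt18), 4.29 (Aqp1), 1.94 (Foxj1), 6.05 (Sox10) and 4.50 (Acta2). Without the 5 libraries of E16 that stood apart, Krt18, Aqp1 and Acta2 could not be tested, and values of other genes shrank, to 0.92 for Foxj1, 0.59 for Ngef, 0.74 for Col4a2, 1.85 for Cspg4, 0.63 for Dlx2, 0.37 for Gad1, 0.65 for Olig1, 1.23 for Apoe, 0.70 for Cdk5r2, 0.46 for Src, 1.03 for Cacna1g and 0.23 for Faap100. Genes not called at E16 alone had 1.11 (Cdk5r2), 2.23 (Dlx2), 2.01 (Gad1), 4.32 (Cldn5), 1.85 (Apoe), 2.61 (Olig1) and -0.92 (Neurod6).

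For genes that fell at E16, E16 minus P0 was -2.79 for Gm10039, -1.06 for Atad2, -0.53 for Rbm39, -0.90 for Prpf39, -0.46 for Srsf11, -0.96 for Hsf2, -0.62 for Psmc6 and -0.45 for Hspd1. It was -0.96 for Epha3, -1.08 for Sema3c, -1.17 for Sox11, -1.84 for Npy, -0.56 for Gsk3b, -0.65 for Gria2, -0.60 for Rps6kb1 and -2.15 for Atp7a. E16 minus E13 was 0.72 for Faap100, 1.53 for Slc7a4 and 1.74 for Slc6a9, and without the 5 libraries 0.46, 1.19 and 0.98.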

How the results depend on the processing

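Cdk5r1 was called in every alternative, whereas the counts of called genes depended strongly on the processing, and the cause was not tested. The alternatives follow as genes higher and lower in KO-Cdk5r1-MADM, beside 218 and 262. They were 112 and 92 with no mean-count minimum, 2 and 4 with no alignment minimum, 1 and 3 with 2 genotypes in the fit, and 68 and 61 with at least 1000000 counts per library. When the percentage of aligned reads that hit no gene entered the model 360 and 368 were called, with sex 145 and 180, with the mitochondrial class 69 and 140, and with RLE in place of TMM scaling 271 and 254. With only controls of the same mitochondrial class edgeR called 0 and 3, with 1627 at an unadjusted p under 0.05, and DESeq2 on all libraries called 625 and 611.

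Alternatives chosen after seeing the data gave 2 and 3 without the 5 libraries apart, 1 and 4 without KO-Cdk5r1-MADM replicates 9 to 11, 22 and 16 with the GC correction, and 1 and 4 with both the correction and the omission of the 5. In the last of these Ngef was at -0.08, with its sign turned. Among 3719 values of single genes over all alternatives, 1261 lost a call, 23 gained one, 1 reversed, and the other 2434 stayed as they were, called or not called. Of 1482 list medians 43 moved by at least 1 SD of the same median across control-MADM libraries, a tolerance within which a small median can change its sign. The difference from P0 was called for 287 genes with a minimum depth in place of the alignment minimum, and for 81 without the 5 libraries. That from E13 was called for 10 and 1 genes, respectively, and for 3 with no mean-count minimum.

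Leaving out 1 library gave 18 to 753 genes higher and 11 to 849 lower. The sum of both was 263 without control-MADM replicate 1, 172 without 2, 199 without 4, 248 without 6, 129 without 7, 212 without 10 and 1311 without 12. Without KO-Cdk5r1-MADM replicate 2 it was 835, without 3 116, without 4 1594, without 5 128, without 6 738, without 7 755, without 9 61, without 10 105 and without 11 29. With the replicate block, 4 and 12 were called, but libraries of the same number correlated at -0.179 to 0.113, so the numbers do not pair libraries.

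The 5 libraries were set apart by their expression, so leaving them out also removes variation that bears on the result. All knockout libraries are of 1 mitochondrial class, and the litters and sorting days are not given.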
